A study of Mus musculus with 6 samples.

Results

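Interferon response genes were read in CD45-negative lung cells, the cells left when leukocytes are depleted from a digested lung, of Ccr2KO mice (strain B6.129S4-Ccr2tm1Ifc/J) and WT mice (C57BL/6J). Ccr2 encodes a chemokine receptor through which monocytes leave the bone marrow. The genotypes were each taken untreated (day 0) and at 28 and 40 days after silica was aspirated into the lung, which gave 6 groups. The animals were 7 to 9 weeks old when the experiments began. Lungs were perfused and digested with enzymes, erythrocytes and silica were taken out on Percoll, and CD45-negative cells were sorted with magnetic labels. RNA of 3 biological replicates was pooled per group and read on 1 one-colour array, so no value carries a spread between animals.

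Members were the 43 genes of a fixed list, 26 known chiefly for induction by type I interferon and 17 known chiefly for induction by interferon-gamma. A gene was kept where a probe with its RefSeq name was well above background on at least 2 of the 6 arrays. This held for 40 genes, 24 of the type I class and 16 of the interferon-gamma class, out of 16440 genes kept on the arrays. Of these, 39 were above background on all 6 arrays. Ubd was above background on 5 and not on the WT untreated array. Mx1, Mx2 and Cxcl11 were matched to no probe and are not analysed here. Levels are log2 signal with the 75th percentile of each array set to 0, taken from the gene's brightest probe, and are compared between arrays only within a gene.

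Type I interferons bind the receptor pair Ifnar1 and Ifnar2, and Janus kinases then activate a complex that includes Stat2 and Irf9 and binds the interferon-stimulated response element (ISRE). Interferon-gamma, made mainly by T and NK cells, binds Ifngr1 and Ifngr2, and its signal reaches genes through the gamma-activated site (GAS). Epithelial, endothelial and stromal cells of the lung carry these receptors, and many target genes answer to both kinds of interferon, so the classes are a matter of degree.

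Promoter windows are shown for the 3 members of each class with the highest silica difference among those that have a RefSeq window, so that the textbook elements can be read beside the values. Zbp1, the type I member with the highest difference, has none here, and Cxcl10, which is shown, did not pass the silica test. The windows are RefSeq sequences (GRCm38.p6) of 300 bases, from 250 before to 50 after the start of the gene, written 5′ to 3′ in the direction of transcription. Capitals mark a match to the ISRE core GAAANNGAAA on either strand or to the GAS letters TTCNNNGAA, which read the same on both strands. The type I members lie at chr12:26456403-26456702 on the minus strand (Rsad2), chr5:120777610-120777909 on the minus strand (Oas3) and chr7:141266375-141266674 on the minus strand (Irf7). The interferon-gamma members lie at chr17:37193642-37193941 on the plus strand (Ubd), chr5:92328030-92328329 on the minus strand (Cxcl9) and chr5:92348840-92349139 on the minus strand (Cxcl10).
Rsad2: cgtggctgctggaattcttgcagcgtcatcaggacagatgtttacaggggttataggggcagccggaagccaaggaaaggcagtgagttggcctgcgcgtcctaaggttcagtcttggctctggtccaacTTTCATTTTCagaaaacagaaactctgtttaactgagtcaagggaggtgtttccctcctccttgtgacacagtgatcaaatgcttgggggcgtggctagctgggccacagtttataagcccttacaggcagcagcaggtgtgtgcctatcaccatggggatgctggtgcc
Oas3: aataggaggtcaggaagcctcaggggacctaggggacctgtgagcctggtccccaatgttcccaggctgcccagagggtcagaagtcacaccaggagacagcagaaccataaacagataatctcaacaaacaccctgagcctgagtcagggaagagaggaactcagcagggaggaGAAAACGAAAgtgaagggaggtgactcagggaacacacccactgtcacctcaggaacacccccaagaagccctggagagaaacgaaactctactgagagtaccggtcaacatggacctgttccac
Irf7: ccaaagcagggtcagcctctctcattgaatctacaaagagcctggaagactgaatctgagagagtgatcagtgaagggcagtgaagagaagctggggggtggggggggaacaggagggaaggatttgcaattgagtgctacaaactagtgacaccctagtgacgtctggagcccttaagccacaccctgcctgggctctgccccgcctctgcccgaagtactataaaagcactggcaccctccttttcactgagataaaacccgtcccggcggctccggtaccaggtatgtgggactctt
Ubd: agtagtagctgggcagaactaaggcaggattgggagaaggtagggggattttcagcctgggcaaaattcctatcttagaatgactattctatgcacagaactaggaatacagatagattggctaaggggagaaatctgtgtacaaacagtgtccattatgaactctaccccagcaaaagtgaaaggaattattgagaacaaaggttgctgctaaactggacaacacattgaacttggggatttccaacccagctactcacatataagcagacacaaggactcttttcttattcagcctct
Cxcl9: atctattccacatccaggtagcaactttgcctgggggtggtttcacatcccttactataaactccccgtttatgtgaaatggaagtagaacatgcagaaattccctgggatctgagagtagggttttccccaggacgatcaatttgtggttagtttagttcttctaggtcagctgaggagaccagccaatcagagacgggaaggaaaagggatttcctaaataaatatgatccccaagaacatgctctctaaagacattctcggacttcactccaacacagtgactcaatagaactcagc
Cxcl10: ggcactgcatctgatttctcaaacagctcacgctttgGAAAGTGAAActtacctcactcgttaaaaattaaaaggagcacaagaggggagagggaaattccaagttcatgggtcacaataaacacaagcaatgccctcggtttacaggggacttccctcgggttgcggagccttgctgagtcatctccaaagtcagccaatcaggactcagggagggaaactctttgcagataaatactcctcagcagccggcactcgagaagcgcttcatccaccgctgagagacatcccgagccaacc

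Rsad2, Oas3 and Cxcl10 each held 1 ISRE core in this window, while Irf7, Ubd and Cxcl9 held none, and none of these windows held the GAS letters. RefSeq windows were at hand for 33 of the 40 members. The ISRE core was found in 10 of 19 type I members (52.6%) and in 10 of 14 interferon-gamma members (71.4%), against 3.99% of the 27025 genes with a window. The GAS letters were found in 4 of 19 type I members (21.1%) and 6 of 14 interferon-gamma members (42.9%), against 9.55% of all genes with a window. Both motifs could overlap in 1 gene, as they did in Bst2. Of the 9 members with a window that rose after silica, 4 held an ISRE core, and of the 23 that did not pass the test, 15 did. A match is a run of letters and was not tested as a binding site.

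Stretches around the ISRE cores of Isg15, Ifit1, Ifit3 and Irgm1 are shown, chosen after their values were seen. These members hold the element and were not called as higher in the silica test. Isg15 still read higher on all 4 silica arrays than on either untreated array. Isg15 lies at chr4:156200871-156200900 on the minus strand, Ifit1 at chr19:34640781-34640798 on the plus strand, Ifit3 at chr19:34583369-34583386 on the plus strand and Irgm1 at chr11:48871431-48871454 on the minus strand. Capitals again mark the core, with 3 overlapping matches in Isg15 and 2 in Irgm1. Ifit1 and Ifit3 each held a second core nearer to the start of the gene.
Isg15: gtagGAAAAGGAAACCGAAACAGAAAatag
Ifit1: tcagTTTCACTTTCcagt
Ifit3: taagTTTCACTTTCctct
Irgm1: tcaaGAAATAGAAACCGAAActga

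As a check of the labels, Ccr2 itself read −5.07, −1.51 and −3.64 in Ccr2KO cells (untreated, day 28 and day 40) and 0.09, 1.38 and −1.70 in WT cells, so it was lower in Ccr2KO cells on every day. Ptprc, which encodes CD45, was above background on all 6 arrays, as were the other 11 of 12 pan-leukocyte genes. Their mean level was 1.74, 3.52 and 1.28 in Ccr2KO cells and 2.73, 3.98 and 1.70 in WT cells. Leukocyte RNA was therefore measurable in cells sorted as CD45-negative, most at day 28 and least at day 40. Probes well above background made up 58.2 to 64.4% of each array. All arrays shared 1 slide, whose row 1 held both untreated arrays with Ccr2KO day 28, and whose row 2 held both day 40 arrays with WT day 28.

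Silica against untreated was tested by pooling days 28 and 40 of both genotypes (4 arrays) against the untreated cells (2 arrays) in a limma fit of day and genotype. With 1 array per group, the p-values measure what an additive model leaves unexplained, not a spread between animals. Of 40 members 11 rose and 1 fell, where 19.8% of all genes passed the test, 10.5% upwards and 9.28% downwards. The type I class held 8 of the 11 that rose, with a median difference of 0.32 on the log2 scale over its 24 members. This median was 0.57 without Ccr2KO untreated and 0.16 without WT untreated. With 1 untreated array left, these are the responses of WT and of Ccr2KO cells alone. The interferon-gamma class held 3 that rose and the 1 that fell, with a median of 0.09 over its 16 members. Over all genes the median difference was −0.01. All 4 silica arrays lay above both untreated arrays for 13 of 40 members (32.5%), against 21.1% of all genes. They lay below both for 2 of 40 members (5%), against 24% of all genes. In pooled RNA, more cells of a kind and more RNA per cell cannot be told apart.

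**Figure D1:**
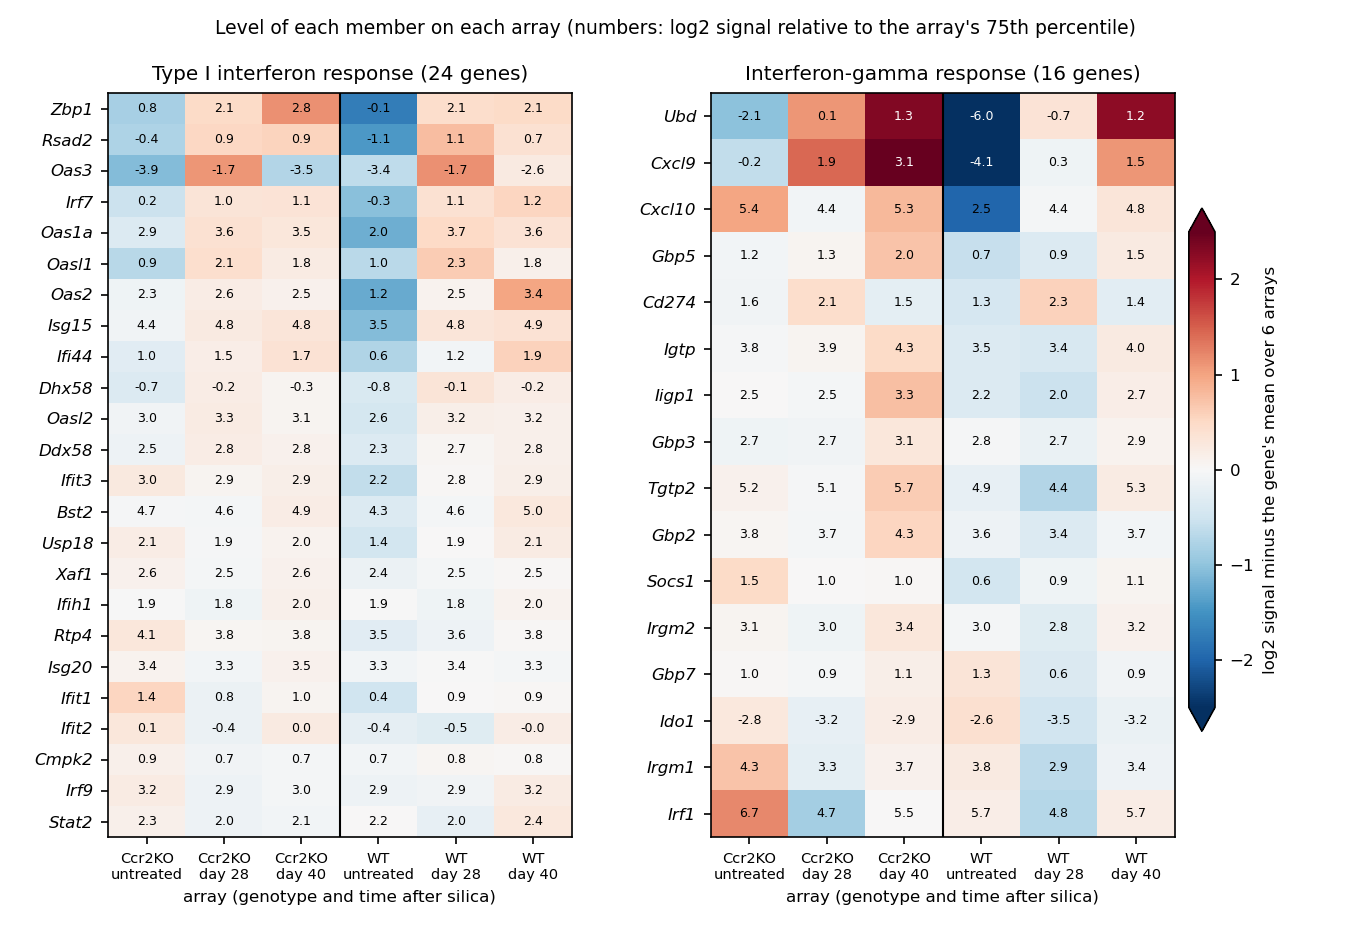
Levels of the 40 members on the 6 arrays, type I class on the left and interferon-gamma class on the right, ordered by the silica difference; the printed numbers are log2 signal relative to the array's 75th percentile and the colour is the deviation from the gene's mean over the 6 arrays. The WT untreated column is the lowest for 18 of the 24 type I members.

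Among the sensors, Zbp1, which binds Z-form nucleic acids and can trigger cell death, read 0.80, 2.09 and 2.76 in Ccr2KO cells (untreated, day 28, day 40) and −0.10, 2.06 and 2.10 in WT cells. All 4 silica arrays lay above both untreated arrays. The silica difference was 1.91 ± 0.21 (log2, SE; limma adjusted p = 0.013), a 3.75-fold rise. Dhx58, a RIG-I-like receptor that tunes its relatives, rose by 0.55 ± 0.10 (limma adjusted p = 0.0317). Its relatives that signal, Ddx58 (RIG-I) and Ifih1 (MDA5), did not pass, at 0.35 ± 0.10 (limma adjusted p = 0.0862) and 0.01 ± 0.09 (limma adjusted p = 0.929).

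The OAS family, whose enzymes sense double-stranded RNA and activate RNase L, gave 3 of the members that rose, and the test was passed by 3 of its 5 genes. Oas1a read 2.85, 3.57 and 3.48 in Ccr2KO cells and 1.97, 3.69 and 3.55 in WT cells. It rose by 1.16 ± 0.25 (limma adjusted p = 0.0477), with the silica arrays close together and the untreated ones apart. Oasl1, which in mouse holds back translation of Irf7, read 0.94, 2.07 and 1.84 in Ccr2KO cells and 0.97, 2.29 and 1.77 in WT cells. Its untreated levels were nearly equal, and it rose by 1.04 ± 0.11 (limma adjusted p = 0.0123). Oas3 read −3.89, −1.70 and −3.54 in Ccr2KO cells and −3.44, −1.65 and −2.58 in WT cells. It rose by 1.30 ± 0.21 (limma adjusted p = 0.0263), although Ccr2KO day 40 lay below WT untreated. Oas2 differed by 1.03 ± 0.44 and did not pass (limma adjusted p = 0.172), with WT day 40 at 3.42, Ccr2KO day 40 at 2.54 and WT untreated at 1.18. Oasl2 differed by 0.40 ± 0.13 (limma adjusted p = 0.104). Oas1a has near-identical neighbour genes that its probe may also read.

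**Figure D2:**
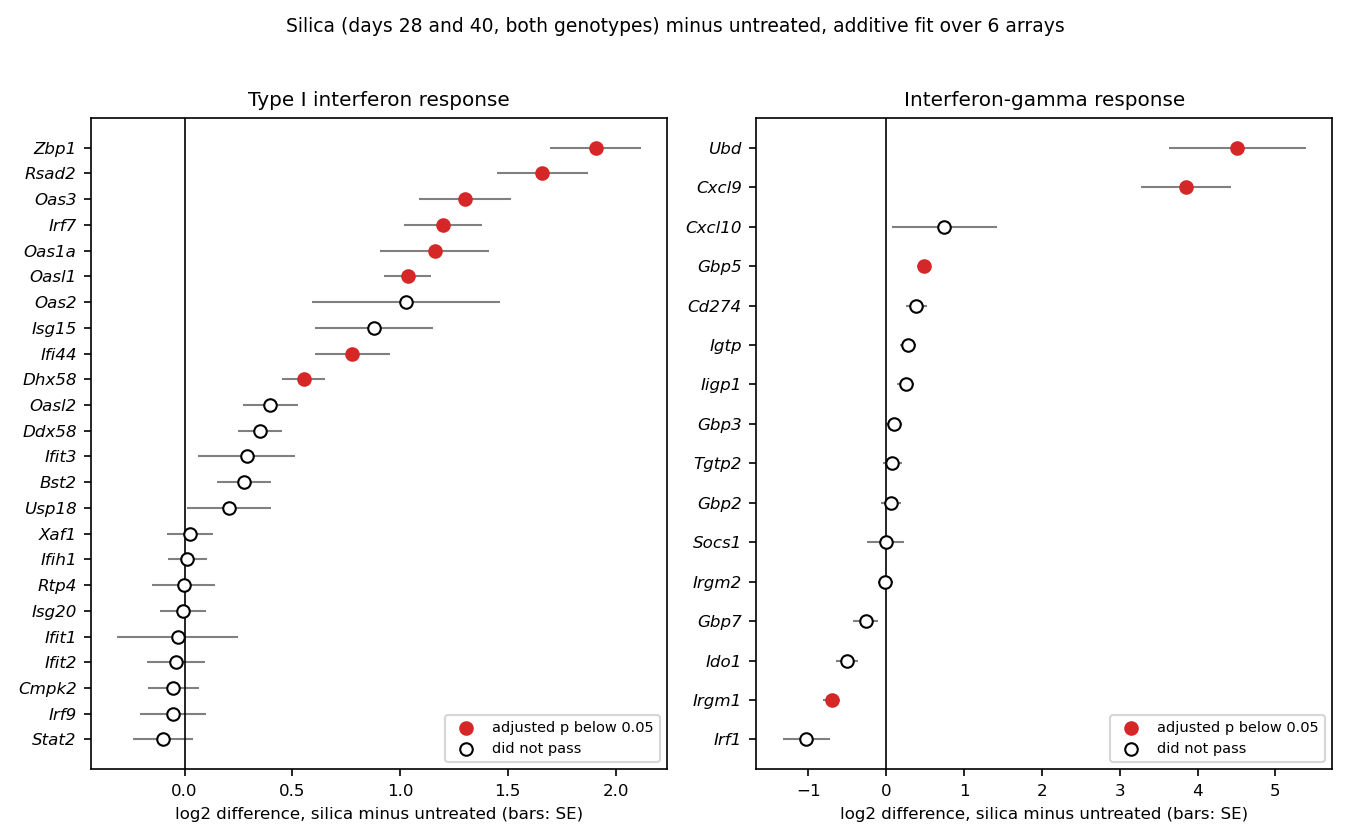
Silica minus untreated for each member (log2 difference, bars 1 SE), with filled points for an adjusted p below 0.05. The type I class spreads upwards to 1.91 (Zbp1), while in the interferon-gamma class Ubd (4.51) and Cxcl9 (3.85) stand apart from the other 14 members, which lie between −1.03 and 0.75.

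Of the antiviral effectors, Rsad2 (viperin), which blocks replication of many viruses, read −0.43, 0.86 and 0.90 in Ccr2KO cells and −1.08, 1.11 and 0.73 in WT cells. It rose by 1.66 ± 0.21 (limma adjusted p = 0.0167), with no overlap between silica and untreated arrays. Ifi44 read 1.04, 1.49 and 1.68 in Ccr2KO cells and 0.56, 1.25 and 1.90 in WT cells, and rose by 0.78 ± 0.17 (limma adjusted p = 0.0497). Isg15, a ubiquitin-like modifier, read 4.44, 4.75 and 4.83 in Ccr2KO cells and 3.45, 4.83 and 4.89 in WT cells. Its 4 silica arrays lay between 4.75 and 4.89, and the difference of 0.88 ± 0.27 did not pass (limma adjusted p = 0.0953) since the untreated arrays were 0.98 apart. The remaining 8 effectors, among them Ifit1, Ifit2 and Ifit3, which bind foreign RNA, and Bst2 (tetherin), which holds budding virus at the cell surface, did not pass and differed by −0.05 to 0.29.

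Among the transcription factors, Irf7, which amplifies type I interferon production, read 0.16, 1.02 and 1.05 in Ccr2KO cells and −0.35, 1.09 and 1.24 in WT cells. It rose by 1.20 ± 0.18 (limma adjusted p = 0.0226), and the silica and untreated arrays did not overlap. Stat2 and Irf9, parts of the ISRE-binding complex, differed by −0.10 ± 0.14 and −0.05 ± 0.15 (limma adjusted p = 0.63 and 0.824). Irf1, a factor induced quickly by interferon-gamma, read 6.73, 4.68 and 5.53 in Ccr2KO cells and 5.70, 4.81 and 5.72 in WT cells. Its difference of −1.03 ± 0.30 did not pass (limma adjusted p = 0.0871), and WT day 40 equalled WT untreated to within 0.02. Usp18, which removes Isg15 from its targets and damps the type I receptor, differed by 0.20 ± 0.20 (limma adjusted p = 0.487). Socs1, an inhibitor of Janus kinases, differed by −0.01 ± 0.24 (limma adjusted p = 0.984).

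Within the interferon-gamma class the 2 large changes were in Ubd and Cxcl9. Ubd (FAT10), a ubiquitin-like tag for degradation, read −2.06, 0.07 and 1.28 in Ccr2KO cells and −6.03, −0.69 and 1.20 in WT cells. It rose by 4.51 ± 0.88 (limma adjusted p = 0.0374), and the WT untreated reading was not well above background. Against that array the signal was 40.5-fold higher on WT day 28 and 150-fold higher on WT day 40. Both folds take the WT untreated signal as read, so they can change with the processing and are not lower bounds. The untreated difference of Ubd, Ccr2KO minus WT, was 3.97 on the log2 scale and 2.10 with normexp on the median signal. Cxcl9, a ligand of Cxcr3 that draws activated T cells, read −0.17, 1.88 and 3.13 in Ccr2KO cells and −4.08, 0.33 and 1.54 in WT cells. It rose by 3.85 ± 0.58 (limma adjusted p = 0.0223), 14.4-fold, and its other probe gave 2.97 ± 0.23. Cxcl10, the other ligand of Cxcr3 measured here, read 5.44, 4.40 and 5.26 in Ccr2KO cells and 2.47, 4.40 and 4.76 in WT cells. Its silica difference of 0.75 ± 0.68 did not pass (limma adjusted p = 0.466), and the Ccr2KO untreated array was the highest of the 6.

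The 9 GTPases of the guanylate-binding and immunity-related families, which act on pathogen vacuoles, did not move as a block. Gbp5 read 1.18, 1.32 and 1.97 in Ccr2KO cells and 0.69, 0.90 and 1.47 in WT cells, and rose by 0.48 ± 0.09 (limma adjusted p = 0.0363). Irgm1, a regulator of the other immunity-related GTPases, read 4.29, 3.32 and 3.67 in Ccr2KO cells and 3.79, 2.92 and 3.44 in WT cells. It was the 1 member that fell, by 0.70 ± 0.11 on the log2 scale (limma adjusted p = 0.0232), with every silica array below both untreated arrays and a second probe at −0.75 ± 0.14. The other 7 (Gbp2, Gbp3, Gbp7, Igtp, Iigp1, Irgm2 and Tgtp2) differed by −0.26 to 0.28 and did not pass. For Iigp1 a second, dimmer probe gave a larger difference, 0.51 ± 0.11, against 0.25 ± 0.12 for the probe used. Tgtp2 has a near-identical copy, and its probes disagreed in sign at 0.08 ± 0.13 and −0.29 ± 0.14. Cd274, which encodes the T cell inhibitor PD-L1, and Ido1, which breaks down tryptophan, differed by 0.39 ± 0.13 (limma adjusted p = 0.119) and −0.50 ± 0.14 (limma adjusted p = 0.0809).

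The number of members that passed moved with single arrays. It was 0 without Ccr2KO day 28, 0 without WT day 28, 5 without WT day 40 and 7 without WT untreated, and 0 when slide row was added as a block, where 1 residual degree of freedom was left in each fit. In the fits that gave 0 members, no gene on the arrays passed, so that result is not particular to the members. The 12 differences kept their sign in each of these fits. Without WT untreated, the silica difference rests on Ccr2KO untreated alone and is the response of Ccr2KO cells. It was 2.73 for Ubd, 2.68 for Cxcl9, 1.63 for Zbp1, 1.31 for Rsad2, 1.27 for Oas3, 1.01 for Oasl1 and 0.88 for Irf7. The response was 0.67 for Oas1a, 0.55 for Ifi44, 0.47 for Dhx58, 0.46 for Gbp5 and −0.79 for Irgm1. Cxcl10, which had not passed, stood at −0.62. Within row 1 of the slide, Ccr2KO day 28 exceeded Ccr2KO untreated by 2.19 for Oas3, 2.13 for Ubd, 2.05 for Cxcl9, 1.30 for Zbp1, 1.29 for Rsad2 and 1.12 for Oasl1. The excess was 0.87 for Irf7, 0.72 for Oas1a, 0.52 for Dhx58, 0.45 for Ifi44 and 0.14 for Gbp5, and the difference for Irgm1 was −0.97.

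By day, 8 members rose and 1 fell at day 28, where 17.2% of all genes passed, 9.17% upwards and 8% downwards. At day 40, 9 rose and 0 fell, where 15.2% of all genes passed, 8.5% upwards and 6.71% downwards. Zbp1, Rsad2, Irf7, Oasl1 and Cxcl9 rose on both days. Oas3, Dhx58 and Cd274 passed at day 28, where Irgm1 fell, and Ubd, Gbp5, Ifi44 and Iigp1 passed at day 40. Whether a gene differed between the days was a separate test, day 40 against day 28. In limma 0 of 40 members passed it, against 2.73% of all genes (0.201% upwards, 2.52% downwards). At an unadjusted p below 0.05 there were 11 members, and the share of all genes at that level is not given here. Leaving out any 1 silica array left 0 members called at day 40, and leaving out either day 28 array left 0 at day 28, while 4 were called at day 40 without WT untreated.

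Day 40 was set against day 28 for each class, as counts of direction with no test between the classes. Of the interferon-gamma members, 15 of 16 were higher at day 40 than at day 28 in both genotypes, against 14 of 24 type I members and 47.6% of all genes. The 1 exception was Cd274, which read 2.15 at day 28 and 1.47 at day 40 in Ccr2KO cells and 2.29 and 1.45 in WT cells. Iigp1, for example, read 2.48 at day 28 and 3.28 at day 40 in Ccr2KO cells, and 1.99 and 2.69 in WT cells. The class averaged 2.37, 2.33 and 2.85 in Ccr2KO cells (untreated, day 28, day 40) and 1.44, 1.97 and 2.51 in WT cells. The 24 further interferon-gamma response genes set out below averaged 2.44, 2.71 and 2.68 in Ccr2KO cells and 2.24, 2.56 and 2.66 in WT cells. Their median of day 40 minus day 28 was 0.22, beside 0.48 for the interferon-gamma members and 0.10 over all genes. The type I class averaged 1.78, 2.06 and 2.07 in Ccr2KO cells and 1.34, 2.08 and 2.16 in WT cells, level between the silica days. Pan-leukocyte genes moved the opposite way, all 12 lower at day 40 than at day 28 in both genotypes, as did all 12 T and NK cell genes kept. Of all genes 20.2% were lower at day 40 in both genotypes. The part of leukocyte RNA in the members' levels was not tested.

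**Figure D3:**
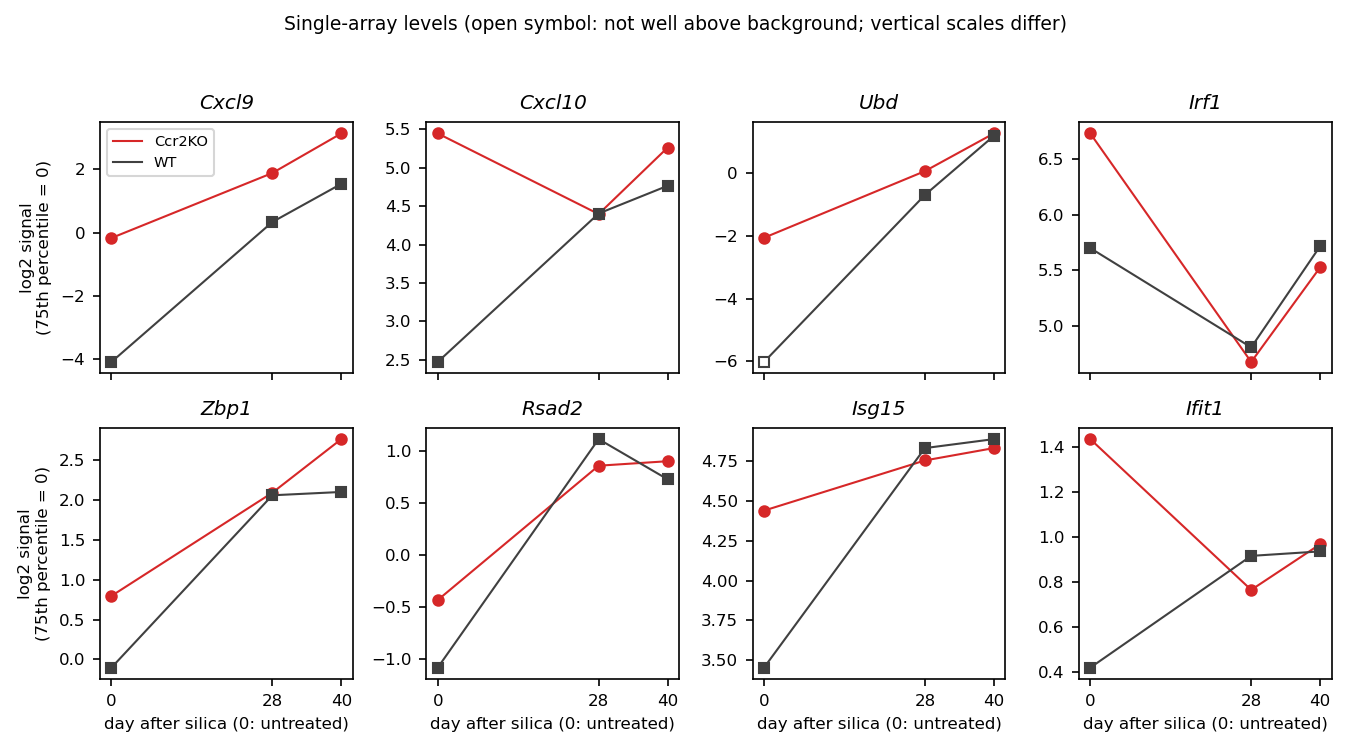
Single-array levels (log2 signal, 75th percentile of the array at 0) of 8 members by day, Ccr2KO in red and WT in grey; day 0 is untreated, and an open symbol is a reading not well above background. Cxcl10, Irf1 and Ifit1 are highest on the Ccr2KO untreated array, and the genotypes lie closer together after silica than before it in each panel.

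Ccr2KO against WT over the 3 days was tested in the same fit. None of the 40 members passed it in limma and none of 16440 genes did (0%), with 7 members at an unadjusted p below 0.05, all of the interferon-gamma class and all higher in Ccr2KO. These were Cxcl9, Gbp5, Gbp2, Igtp, Iigp1, Irgm1 and Tgtp2. The share of all genes at that unadjusted level is not given here, so no excess is read from the count. Cxcl9 was the largest, with a mean level of 1.61 in Ccr2KO cells and −0.74 in WT cells (n = 3 arrays each) and a difference of 2.35 ± 0.54 (limma adjusted p = 0.45). Gbp5 had the smallest p, with 1.49 in Ccr2KO cells and 1.02 in WT cells and a difference of 0.47 ± 0.09 (limma adjusted p = 0.395). In the interferon-gamma class 9 of 16 members were higher in Ccr2KO than in WT on all 3 days and none was lower on all 3. Of all genes 19.6% were higher and 13.3% lower on all 3 days. Of the 24 type I members, 4 (16.7%) were higher on all 3 days (Zbp1, Ifit2, Ifih1 and Rtp4), near the share of all genes, and Oas3 was lower. The class medians were 0.36 for interferon-gamma and 0.11 for type I members, beside 0.03 over all genes. Over the 24 further interferon-gamma response genes set out below, the median was 0.11.

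For type I members the median of Ccr2KO minus WT was 0.41 before silica, −0.02 at day 28 and −0.06 at day 40. For interferon-gamma members it was 0.33, 0.30 and 0.25. Some of these lay further apart after silica, such as Gbp2 at 0.18, 0.31 and 0.60. For the 24 further interferon-gamma response genes the median was 0.11, 0.13 and 0.01. On the untreated arrays, 35 of 40 members were higher in Ccr2KO than in WT cells, against 58% of all genes. A 2-fold difference was used as the call between single arrays, which allow no test. By that call 6 members were higher in Ccr2KO and none was lower (4.98% of all genes differed by this much, 2.17% higher and 2.81% lower). They were Cxcl9, with −0.17 in Ccr2KO and −4.08 in WT cells, Cxcl10, with 5.44 in Ccr2KO and 2.47 in WT cells, Ubd, Oas2, Irf1 and Ifit1. Ubd differed by 3.97 (15.7-fold), against a WT reading not well above background, and by 2.10 with normexp. The differences of Oas2, Irf1 and Ifit1 were 1.14, 1.03 and 1.02. For Irf1 a second, dim probe read −4.30 in Ccr2KO and −3.95 in WT cells, the opposite direction. The Irf1 difference was 0.34 with probes averaged, and also under 2-fold with normexp, with quantile scaling (0.88) and in the deposited value table (0.98). At day 28 only Cxcl9 differed 2-fold, with 1.88 in Ccr2KO and 0.33 in WT cells (2.43% of all genes differed, 1.24% higher and 1.19% lower in Ccr2KO). At day 40 it again was the only member, with 3.13 in Ccr2KO and 1.54 in WT cells (4.9% of all genes differed, 3.31% higher and 1.59% lower). Both untreated arrays lay in the same row of the slide.

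**Figure D4:**
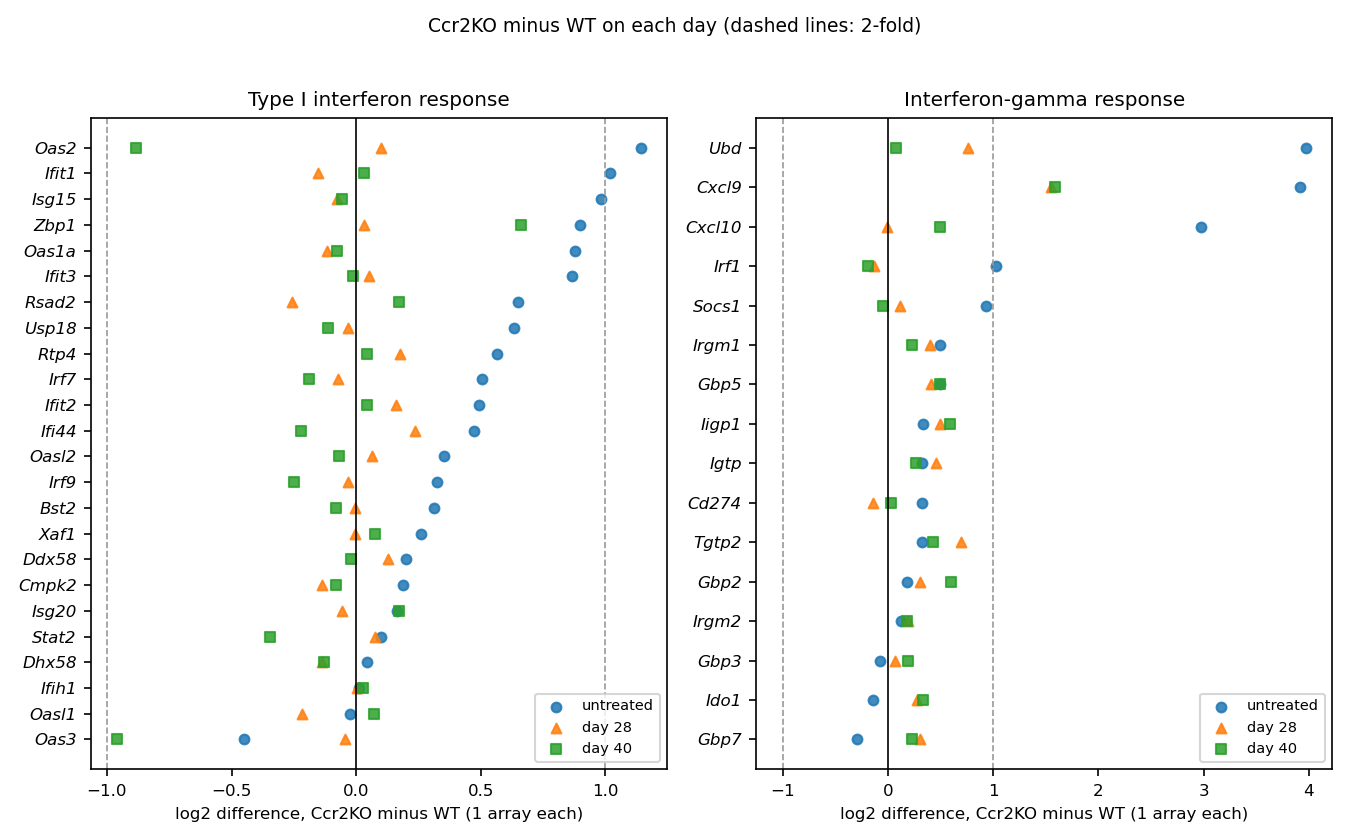
Ccr2KO minus WT for each member on each day (log2 difference between 2 single arrays; dashed lines at 2-fold), ordered by the untreated difference. Before silica Ubd and Cxcl9 lie farthest to the right. The Ubd point, 15.7-fold, rests on a WT untreated reading that was not well above background. The day 28 and day 40 points of every member but Cxcl9 lie within 2-fold.

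WT untreated was the lowest of the 6 arrays for 24 of 40 members, 18 of 24 in the type I class and 6 of 16 in the interferon-gamma class, against 27.7% of all genes. Ccr2KO untreated was the highest array for 11 of 40 members, against 20.3% of all genes. Both held for Irf9, Ifit1, Ifit3, Xaf1, Rtp4, Cxcl10 and Socs1. Ifit1 was one of them, with 1.44, 0.76 and 0.97 in Ccr2KO cells (untreated, day 28, day 40) and 0.42, 0.92 and 0.94 in WT cells, as was Ifit3, with 3.03, 2.87 and 2.93 in Ccr2KO cells and 2.17, 2.82 and 2.94 in WT cells. For both genes the silica arrays lay between the 2 untreated readings, which were 1.02 and 0.86 apart. Among the members for which both patterns held, the range over the 6 arrays ran from 0.26 (Xaf1) to 2.97 (Cxcl10). The share of all genes for which both patterns held is not given here.

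Counted within each genotype, the same 2-fold call gave 6 members higher and 2 lower at day 28 in Ccr2KO cells (9.36% of all genes higher, 5.99% lower) and 11 higher and 0 lower in WT cells (9.13% higher, 5.57% lower). At day 40 it gave 4 higher and 1 lower in Ccr2KO cells (8.95% higher, 5.8% lower) and 10 higher and 0 lower in WT cells (7.79% higher, 6.19% lower). The members lower than untreated in Ccr2KO cells were Irf1, with differences of −2.05 at day 28 and −1.20 at day 40, and Cxcl10, with −1.05 at day 28. The median silica response of the type I members was 0.16 in Ccr2KO cells and 0.57 in WT cells. A test of the difference between the responses, the genotype by silica term, was passed by 0 of 40 members and 0% of all genes. At an unadjusted p below 0.05 there were 7 members, and the share of all genes at that level is not given here. Each response rests on a single untreated array of its genotype.

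Markers of cell types were read on the same arrays, and their part in the untreated difference of the members was not tested. On the untreated arrays, where 58% of all genes were higher in Ccr2KO than in WT cells, all 12 pan-leukocyte genes were lower. So were 8 of 12 T and NK cell genes, 6 of 7 macrophage and monocyte genes and all 4 plasmacytoid dendritic cell genes. Of 6 neutrophil genes 3 were higher in Ccr2KO. The T and NK cell genes averaged −0.36, 1.08 and −0.59 in Ccr2KO cells and 0.23, 1.06 and −0.49 in WT cells. The macrophage and monocyte genes averaged −0.24, 1.76 and 0.59 in Ccr2KO cells and 1.27, 1.81 and −0.24 in WT cells. Neutrophil genes averaged 2.19, 4.24 and 2.10 in Ccr2KO cells and 2.30, 4.07 and 1.94 in WT cells. Epithelial genes averaged 3.66 in Ccr2KO and 3.54 in WT cells before silica, endothelial genes 4.28 in Ccr2KO and 4.58 in WT cells, and fibroblast genes 4.67 in Ccr2KO and 4.60 in WT cells. After silica, where 10.5% of all genes rose and 9.28% fell, 3 of 12 pan-leukocyte genes rose, as did 4 of 12 T and NK cell genes, 4 of 6 neutrophil genes, 1 of 7 macrophage and monocyte genes and 1 of 4 plasmacytoid dendritic cell genes. Of the fibroblast genes 4 of 6 rose and 1 fell, while 2 of 6 endothelial and 2 of 6 epithelial genes fell. These calls pool both silica days. At day 28 alone, 9.17% of all genes rose. So did 11 of 12 pan-leukocyte, 6 of 12 T and NK cell and 5 of 6 neutrophil genes. At day 40 alone, 8.5% of all genes rose and 6.71% fell. No pan-leukocyte, T and NK cell or neutrophil gene rose then, while 3 pan-leukocyte genes and 1 T and NK cell gene fell.

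**Figure D5:**
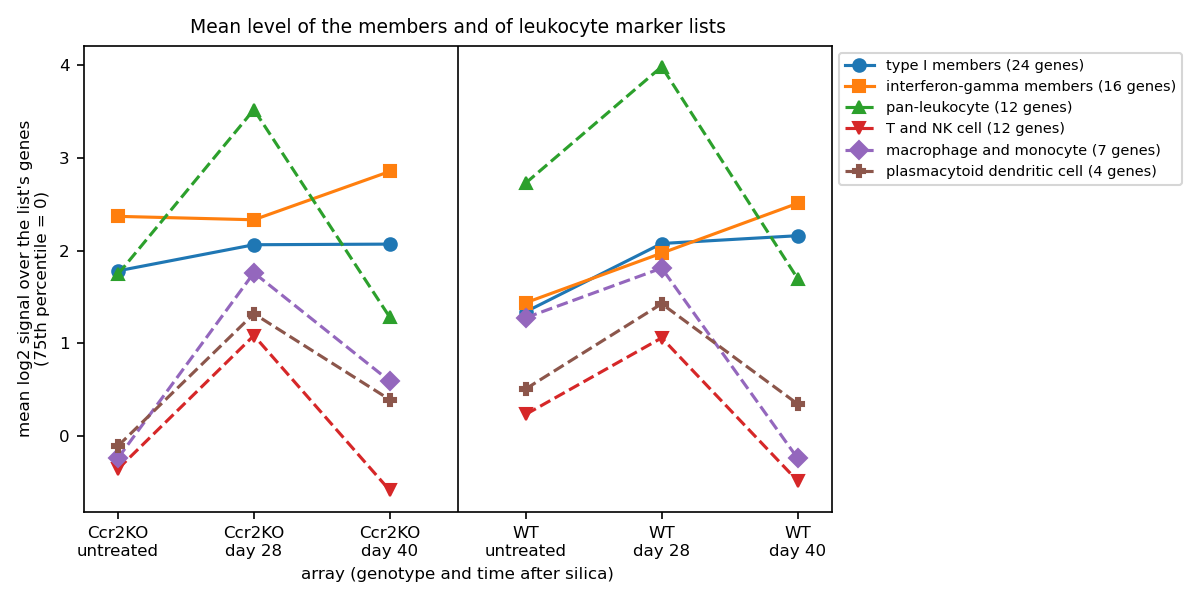
Mean log2 signal of the 2 member classes (solid lines) and of 4 leukocyte marker lists (dashed lines) on each array, Ccr2KO on the left and WT on the right. The leukocyte lists peak at day 28 in both genotypes, while the interferon-gamma members are highest at day 40, at 2.85 in Ccr2KO and 2.51 in WT cells.

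The interferons themselves gave no call. Of 18 interferon genes 11 were kept, and none of them passed the silica test in limma, with 0 at an unadjusted p below 0.05. Ifng, the interferon-gamma gene, read −1.24, 0.60 and −0.71 in Ccr2KO cells and −0.49, 0.43 and −1.03 in WT cells, with a difference of 0.69 ± 0.26 (limma adjusted p = 0.142). It was highest at day 28 in both genotypes, and lower in Ccr2KO than in WT cells before silica. The 8 interferon-alpha genes kept (Ifna1, Ifna2, Ifna5, Ifna11, Ifna12, Ifna13, Ifna14 and Ifnab) differed by −0.26 to 0.42, Ifnl3 by 0.24 and Ifnk by −0.54. Interferon-alpha genes are close in sequence and their probes may read each other's RNA. Ifnb1, Ifna4 and Ifne had probes that did not pass the filter. Of the 6 receptor genes, Ifnlr1, the receptor chain for interferon-lambda, fell by 0.75 ± 0.15 (limma adjusted p = 0.0376). It read 0.58, 0.13 and −0.23 in Ccr2KO cells and 0.70, −0.23 and −0.12 in WT cells. Ifnar1, Ifnar2, Ifngr1, Ifngr2 and Il10rb differed by −0.07 to 0.32 and did not pass.

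Upstream of the interferons, 3 of 13 genes of nucleic acid sensing rose, where 10.5% of all genes did. Sting1, the adaptor that answers to cyclic dinucleotides made on cytosolic DNA, read 2.21, 3.54 and 3.67 in Ccr2KO cells and 1.69, 3.40 and 3.73 in WT cells and rose by 1.63 ± 0.15 (limma adjusted p = 0.0106). Ifi204, a DNA-binding protein of the same branch, rose by 1.18 ± 0.17 (limma adjusted p = 0.0218), and Ikbke, a kinase that activates interferon regulatory factors, by 1.02 ± 0.12 (limma adjusted p = 0.0137). The median of these 13 genes was 0.04. Among the kinases and transcription factors of the pathway, the largest differences were in Jak2 at 0.56 ± 0.13 (limma adjusted p = 0.0515) and Batf2 at −0.46 ± 0.17 (limma adjusted p = 0.137), and neither passed. Of 9 limiters of the response, Pias1, a SUMO ligase, fell by 0.66 ± 0.10 (limma adjusted p = 0.0224), where 9.28% of all genes fell. The rest did not pass this test, which pools both silica days. By day, 1 limiter rose and 1 fell at day 28 (9.17% and 8% of all genes). At day 40, 2 limiters fell (6.71% of all genes). Of the 10 kinases and transcription factors, 1 rose at day 28.

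A further pair of lists of target genes were set beside the members. Of 28 more type I response genes 4 rose and 1 fell, with a median difference of 0.29, beside 10.5% of all genes that rose and 9.28% that fell. Ifitm1 and Ifitm2, which block viral fusion, rose by 1.69 ± 0.12 (limma adjusted p = 0.00792) and 0.48 ± 0.09 (limma adjusted p = 0.037), Lgals3bp by 0.97 ± 0.13 (limma adjusted p = 0.0193) and Slfn2 by 0.93 ± 0.17 (limma adjusted p = 0.0311). Slfn5 fell by 0.67 ± 0.13 (limma adjusted p = 0.0374). Of 24 more interferon-gamma response genes 3 rose and none fell, with a median of 0.31. In this test, which pools both silica days, the share that rose was near the 10.5% of all genes. By day, 6 of the 24 rose at day 28, where 9.17% of all genes did, and 2 at day 40, where 8.5% did. Pdcd1lg2, the second ligand of PD-1, rose by 1.56 ± 0.12 (limma adjusted p = 0.00856), Nos2, the inducible nitric oxide synthase, by 1.42 ± 0.14 (limma adjusted p = 0.0106), and Psmb8, a subunit of the immunoproteasome, by 0.54 ± 0.09 (limma adjusted p = 0.0289). Pdcd1lg2 was high at day 28 alone, with −4.17, −1.61 and −3.93 in Ccr2KO cells (untreated, day 28, day 40) and −4.60, −1.72 and −4.05 in WT cells. In none of these lists did a gene pass the test of Ccr2KO against WT, where 0% of all genes did.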

How the data were processed

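One-colour Agilent arrays were scanned by the authors, and Feature Extraction 11.0.1.1 gave background-subtracted, detrended intensity, per the file headers. A deposited table holds log2 values of that intensity, and the submitters' processing notes name R 2.15.1. The deposited intensity of 6 arrays (RNA pooled from 3 biological replicates each) was used. Control and outlier spots were left out, spots of a probe were averaged, and log2 intensity was lowered by the array's 75th percentile. Probes were named through RefSeq, kept where well above background on at least 2 arrays, and the brightest probe stood for its gene, which left 16440 genes. Array number and pooling limit the precision.

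All genes were fitted with lmFit and eBayes of limma 3.58.1 in R 4.3.3 (package data.table, version 1.17.8). A call needed a Benjamini-Hochberg p below 0.05 over all genes. An additive fit of day and genotype and a fit of genotype by silica each had 2 residual degrees of freedom (prior 2.22 and 1.87). Single arrays were compared at 2-fold. The script was tested on simulated data. The members and lists were chosen with earlier results of these data known. Genes beyond the members were named by rule: every interferon gene and receptor kept, and from each other list up to 4 that passed, or the 2 largest where none did. The scanner files held no mean signal column, so the normexp alternative used the median signal. Promoters were read from RefSeq (GRCm38.p6). Alternatives also covered quantile scaling, the deposited value table, the filter, probes averaged, an intensity trend, the slide row and leaving out each array.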

Additional observations from a re-analysis of the deposited data

Results flagged for a closer look

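For 9 members both silica arrays lay above the untreated array in WT cells and both lay below it in Ccr2KO cells. This is a pattern of signs, and some of the differences behind it were small: Xaf1 on the silica arrays of Ccr2KO cells differed from untreated by −0.17 and −0.01. This held for 22.5% of the members and for 4.96% of all genes. The reverse arrangement was seen in 0 members and in 3.79% of all genes. The difference of the silica responses, Ccr2KO minus WT on the log2 scale, was −2.73 for Cxcl10, −1.08 for Ifit1, −0.90 for Socs1 and −0.84 for Ifit3. It was −0.71 for Usp18, −0.47 for Irf9, −0.46 for Rtp4, −0.30 for Cmpk2 and −0.23 for Xaf1. The genotype by silica term of limma was not passed by any of the 9, each at an adjusted p of 0.9998 over all genes, and each difference rests on 1 untreated array per genotype.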

How the results depend on the processing

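Pooled RNA and 1 array per group left 2 residual degrees of freedom, and 1 in the fits that left out an array or blocked the slide row, so their lost calls partly follow from that construction. The 12 silica calls kept their sign in all 14 alternative settings in which they were measured. Ubd was not in the deposited value table or among probes above background on all arrays.

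The count of members that passed for silica was 6 with no filter and 0 once slide row was a block, against 12. Leaving out an array gave 0 to 9. Where the silica count was 0, no gene on the arrays passed. At day 28 it was 5 with no filter and 0 with the row block, against 9, and 0 to 9 without an array. At day 40 it was 2 with no filter, 14 with an intensity trend and robust prior and 0 with the row block, against 9, and 0 to 8 without an array. For day 40 against day 28 it was 4 with normexp on the median signal, chosen after seeing the files, 2 with probes above background on all 6 arrays and 4 with the intensity trend, against 0, and 0 to 1 without an array. For Ccr2KO against WT, and for the difference of responses where it could be estimated, it stayed at 0 in each setting. Members 2-fold apart before silica numbered 3 in the deposited value table, against 6, and at day 40 there were 2 after quantile scaling, against 1. The type I median for silica was 0.57 without Ccr2KO untreated and 0.16 without WT untreated, the responses of WT and of Ccr2KO cells alone. At day 28 the type I median was 0.55 without Ccr2KO untreated and 0.01 without WT untreated. No paired analysis was possible because each group had a single array and replicate number. The mean-signal form of normexp was not run, since the files hold no such column.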
